A study of Oryza sativa with 12 samples.

Results

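The genes described here are 7 rice genes for enzymes of the phenylpropanoid pathway and its lignin branch, out of 17905 genes with a probe set of their own on the array. They are the 4-coumarate:CoA ligase genes 4CL5, 4CL-3 and 4CL4, the 4-coumarate:CoA ligase-like gene 4CLL1, the O-methyltransferase gene ROMT-17, the cinnamyl alcohol dehydrogenase gene CAD6 and the laccase gene LAC24. They were chosen by name and probe set from genes whose signal differed between groups of these same arrays, and which difference chose which gene is not recorded. Every difference between groups is therefore given for these 7 genes as a description, with its standard error (SE) and no test. The 7 genes have 11 of the 57258 rice probe sets: 4 probe sets read ROMT-17, a pair reads 4CL4, and the other 5 genes have 1 each. All 11 passed the filter on low values that 75.1% of the rice probe sets passed.

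The study hybridised total RNA of an F1 hybrid and its parents to 12 Affymetrix rice arrays, and its title concerns hybrid weakness, the poor growth of some hybrids of healthy parents. The groups were the F1 hybrid between C bao and Jamaica, the cultivar C bao and the cultivar Jamaica, each as leaves of plants 4 weeks old and roots of plants 7 days old, with 2 arrays a group. No treatment is given, tissue and age cannot be told apart, and the labels do not say whether the arrays of a group came from separate plants, so errors and p-values measure the spread between arrays, which may be technical. Values are MAS5 signals, an intensity per probe set after each array was brought to a common mean, and differences are on the scale log2(signal + 16), which understates changes of dim probe sets. The mid-parent is the mean of the 2 parents on that log2 scale.

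The tissue labels held against the averages of their markers. The 6 leaf marker genes averaged a log2 signal of 12.7 to 13.6 on leaf arrays and 8.44 to 10.1 on root arrays, with RBCS1 near background on all arrays, and the 5 root marker genes averaged 7.01 to 7.51 on leaf arrays and 10.98 to 11.98 on root arrays. Among the root markers, IRT1 was no higher in parental roots (162 to 280) than in parental leaves (161 to 348). The summed leaf markers were 13827 and 17105 in C bao roots, against 6085 and 5579 in Jamaica roots. The 2 F1 leaf arrays stood apart from each other (r = 0.924 over all probe sets tested, against 0.944 to 0.968 in the other groups). Control probe sets at the 3' and 5' ends of a transcript give a check on RNA quality. Their log2 ratio for gapdh was -4.56 and 2.80 on F1 leaf arrays 1 and 2, and -1.56 and 3.51 on C bao root arrays 1 and 2. The ratios of actin (3.08 to 4.04), cyclophilin (0.61 to 1.39) and ubiquitin (-0.69 to -0.25) varied less over the arrays. What part this has in the members' levels was not tested. On F1 leaf arrays 1 and 2 the summed signal of 15 dividing-cell genes was 12759 and 2113. It was 10324 and 13404 in C bao leaves and 2147 and 2470.5 in Jamaica leaves. The summed signal of 6 dehydration genes was 1611 and 47340 on F1 leaf arrays 1 and 2, against 687 to 2702 on the parental leaf arrays. F1 roots carried the same dehydration genes at a summed 107920 and 121770, against 546 to 2698 on the parental root arrays. Bulk RNA cannot tell fewer cells of a type from less RNA per cell.

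Plants make lignin from phenylalanine. Phenylalanine ammonia-lyase (PAL) removes the amino group, and 4-coumarate:CoA ligase (4CL) activates hydroxycinnamic acids made from the product as CoA esters. From there carbon goes either to flavonoids or, through hydroxycinnamoyl transferases (HCT), O-methyltransferases, cinnamoyl-CoA reductase (CCR) and cinnamyl alcohol dehydrogenase (CAD), to the monolignols. Laccases and peroxidases then oxidise the monolignols in the cell wall, where the radicals couple into the polymer. In grasses the flavone tricin is also built into lignin, and phenylpropanoid genes are known to answer to wounding, pathogens and drought as well as to the needs of vessels and fibres.

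The 7 genes did not move as a block in the hybrid. In F1 leaves LAC24 stood far above both parents, 4CL5 and 4CL-3 stood above both parents by a smaller step, and CAD6 sat at the low level of Jamaica and well below C bao. In F1 roots 4CL5, CAD6 and 3 of the 4 ROMT-17 probe sets stood above both parents, and 4CL4 did so by a smaller step. Overlap with a parent was seen there for 4CL-3, 4CLL1 and LAC24. Between the parents, CAD6 was higher in C bao in both tissues, and LAC24 was higher in C bao leaves but lower in C bao roots than in Jamaica.

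**Figure D1:**
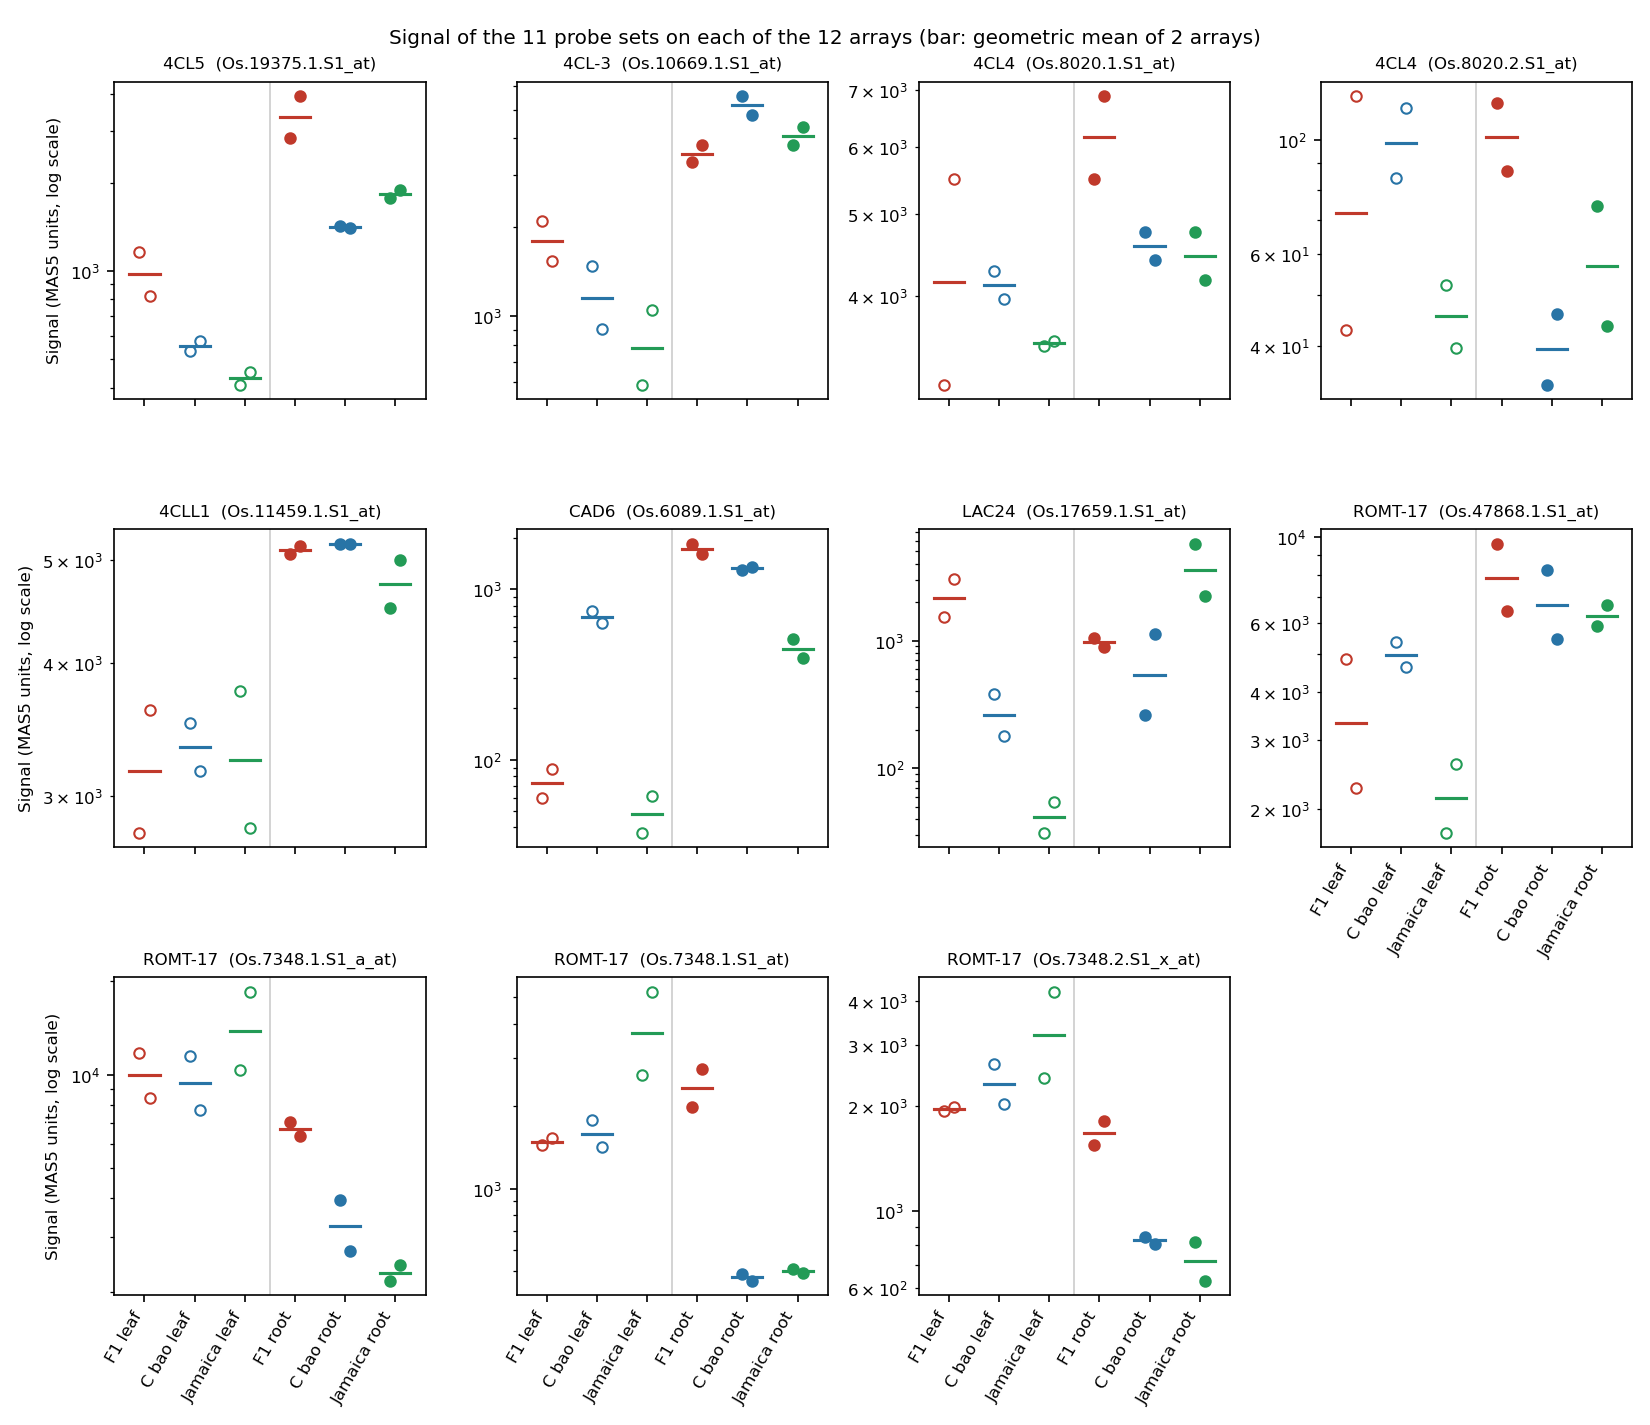
Signal of each of the 11 probe sets on all 12 arrays, on a log axis in MAS5 units, with F1, C bao and Jamaica leaves (open circles) left of F1, C bao and Jamaica roots (filled circles). Each circle is 1 array and each bar the geometric mean of 2 arrays. LAC24 on both F1 leaf arrays (1517 and 3047.5) lies above all parental leaf arrays, and CAD6 on both F1 leaf arrays (59.8 and 88.6) lies with Jamaica leaves.

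4CL5 encodes a 4-coumarate:CoA ligase. Its signal was 1162 and 824 in F1 leaves, against 534 and 576 in C bao leaves and 409 and 452 in Jamaica leaves. In roots it was 2845 and 3946 in the F1, against 1421 and 1403 in C bao roots and 1776 and 1892 in Jamaica roots. The 6 groups kept apart without overlap between neighbours, in the order F1 root, Jamaica root, C bao root, F1 leaf, C bao leaf, Jamaica leaf. F1 minus mid-parent was 0.98 ± 0.19 in leaves and 1.05 ± 0.19 in roots (log2, limma SE, n = 2 arrays a group), so that the hybrid was about 1 log2 unit above its parents in both tissues.

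4CL-3, another 4-coumarate:CoA ligase gene, had its lowest levels in leaves. Its signal was 2107 and 1533 in F1 leaves, against 1476 and 903 in C bao leaves and 586 and 1047.5 in Jamaica leaves. F1 roots gave 3315 and 3801, against 5561 and 4805 in C bao roots and 3795.5 and 4371 in Jamaica roots. The hybrid thus stood above every parental array in leaves, and in roots below C bao with an overlap with Jamaica. The hybrid minus its mid-parent was 0.91 ± 0.26 in leaves and -0.37 ± 0.26 in roots. The groups ran from C bao root through Jamaica root, F1 root, F1 leaf and C bao leaf to Jamaica leaf, and the arrays of Jamaica and F1 roots, and those of C bao and Jamaica leaves, overlapped.

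4CL4, the third 4-coumarate:CoA ligase gene, was read by a bright and a dim probe set. The bright one gave 3144 and 5498.5 in F1 leaves, against 4284 and 3969 in C bao leaves and 3495.5 and 3542 in Jamaica leaves. Root signals were 5500.5 and 6893.5 in the F1, against 4761.5 and 4411 in C bao roots and 4766 and 4176 in Jamaica roots. The F1 leaf arrays spanned all parental leaf arrays, while both F1 root arrays were above all parental root arrays. F1 minus mid-parent was 0.13 ± 0.20 in leaves and 0.44 ± 0.20 in roots, and without F1 leaf array 2 the leaf value was -0.28. With median centring the root value was 0.20. The dim one ranged from 33.6 to 121 over the 12 arrays, close to the filter at a signal of 32.2, and every pair of neighbouring groups overlapped in it. Its F1 root arrays (118 and 86.9) were both above all parental root arrays (33.6 to 74.4).

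4CLL1 belongs to the 4-coumarate:CoA ligase-like enzymes, which share the acyl-activating fold of 4CL. It gave 2768.5 and 3616 in F1 leaves, against 3513 and 3168 in C bao leaves and 3763 and 2797 in Jamaica leaves. F1 roots gave 5066 and 5158, against 5177 and 5181 in C bao roots and 4503.5 and 5005 in Jamaica roots. It was higher in roots than in leaves in every genotype, and the genotypes lay close together within each tissue. F1 minus mid-parent was -0.06 ± 0.16 in leaves and 0.04 ± 0.16 in roots, and the sign of the root value turned with median centring of the arrays (-0.20).

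ROMT-17 encodes an O-methyltransferase of the caffeoyl-CoA type, and the rice enzymes of this pair, ROMT-15 and ROMT-17, have been described as tricin synthases. The 2 genes are neighbours in the RefSeq annotation of rice assembly ASM3414082v1. Of its 4 probe sets, 3 belong to 1 transcript cluster of the array design: a plain one, one ending in _a_at, the manufacturer's mark for probes common to transcripts of 1 gene, and one ending in _x_at, the mark for probes that may match other sequences. The fourth belongs to another cluster, and it gave another pattern. Levels of different probe sets are not compared below.

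The plain ROMT-17 probe set gave 1447 and 1526 in F1 leaves, against 1787 and 1414 in C bao leaves and 2609 and 5239 in Jamaica leaves. F1 roots gave 1990.1 and 2725, against 488 and 462 in C bao roots and 511 and 491 in Jamaica roots. Its F1 root arrays were both far above the 4 parental root arrays, which lay within 50 units of each other. The F1 difference from the mid-parent was 2.22 ± 0.25 in roots, the largest of the 11 root differences, and -0.70 ± 0.25 in leaves. The leaf minus root difference was 2.28 ± 0.21 in the parents and -0.64 ± 0.29 in the F1.

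The _a_at probe set of ROMT-17 gave 11792 and 8435 in F1 leaves, against 11517 and 7673 in C bao leaves and 10346 and 18519 in Jamaica leaves. In roots it gave 7026 and 6363 in the F1, against 3954 and 2699 in C bao roots and 2176 and 2432.5 in Jamaica roots. Here too the F1 roots were above all parental roots, by 1.28 ± 0.26 over the mid-parent, and the leaf groups overlapped (-0.19 ± 0.26, and 0.03 with quantile scaling). The _x_at probe set of ROMT-17 gave 1934.5 and 1990.2 in F1 leaves, against 2643 and 2027 in C bao leaves and 2405 and 4258 in Jamaica leaves. Its root signals were 1541 and 1807 in the F1, against 844 and 805 in C bao roots and 814 and 631 in Jamaica roots. F1 minus mid-parent was 1.10 ± 0.23 in roots and -0.47 ± 0.23 in leaves, where both F1 arrays were below all parental arrays.

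The fourth ROMT-17 probe set gave 4847 and 2263 in F1 leaves, against 5377 and 4624 in C bao leaves and 1733 and 2611 in Jamaica leaves. F1 roots gave 9621 and 6441, against 8229.9 and 5469 in C bao roots and 5894 and 6672 in Jamaica roots. The F1 overlapped a parent in both tissues (0.02 ± 0.31 in leaves and 0.28 ± 0.31 in roots). It was lower in parental leaves than in parental roots (-0.99 ± 0.25), whereas the other 3 ROMT-17 probe sets were 1.80 to 2.28 log2 units higher in leaves. The neighbouring gene ROMT-15, on its own probe set, was also lower in parental leaves than in parental roots (log2 -1.41 ± 0.13, limma adjusted p = 7.36e-06). Why this probe set differs from the other 3 was not tested.

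CAD6 is named as a cinnamyl alcohol dehydrogenase, the enzyme class that reduces cinnamaldehydes to monolignols. Its signal was 59.8 and 88.6 in F1 leaves, against 744 and 636 in C bao leaves and 37.3 and 61.0 in Jamaica leaves. In roots it was 1852 and 1609.5 in the F1, against 1306 and 1356 in C bao roots and 513 and 393 in Jamaica roots. In leaves the hybrid overlapped Jamaica and lay far below C bao, and in roots it was above both parents. F1 minus C bao was -2.98 ± 0.27 in leaves and 0.37 ± 0.27 in roots, and F1 minus Jamaica was 0.48 ± 0.27 in leaves and 1.91 ± 0.27 in roots. Against the mid-parent the values were -1.25 ± 0.24 in leaves and 1.14 ± 0.24 in roots, opposite in sign. CAD6 also had the widest gap between tissues in the hybrid, with F1 leaf minus F1 root at -4.29 ± 0.27, against -1.90 ± 0.19 for the parents.

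LAC24 is named as a laccase, the class of copper oxidases that couples monolignols in the wall. Its signal was 1517 and 3047.5 in F1 leaves, against 383 and 180.2 in C bao leaves and 31.4 and 54.9 in Jamaica leaves. In roots it was 1044 and 896 in the F1, against 259.6 and 1131 in C bao roots and 5712 and 2228 in Jamaica roots. Both F1 leaf arrays were above every parental leaf array, and the F1 root arrays lay between the lower C bao array and the Jamaica arrays. F1 minus mid-parent was 4.09 ± 0.57 in leaves, ranging from 3.59 to 4.59 as each array was left out in turn. In roots it was -0.53 ± 0.57, and between -1.05 and -0.02 with C bao root array 1 or 2 left out. LAC24 was the only member with a higher mean in F1 leaves than in F1 roots and a lower one in parental leaves than in parental roots (1.14 ± 0.66 and -3.48 ± 0.46). The parental difference lay mainly in Jamaica, with a mean log2 signal of 5.86 in leaves and 11.81 in roots. C bao had 8.13 in leaves and 9.135 in roots, and its arrays overlapped between tissues.

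**Figure D2:**
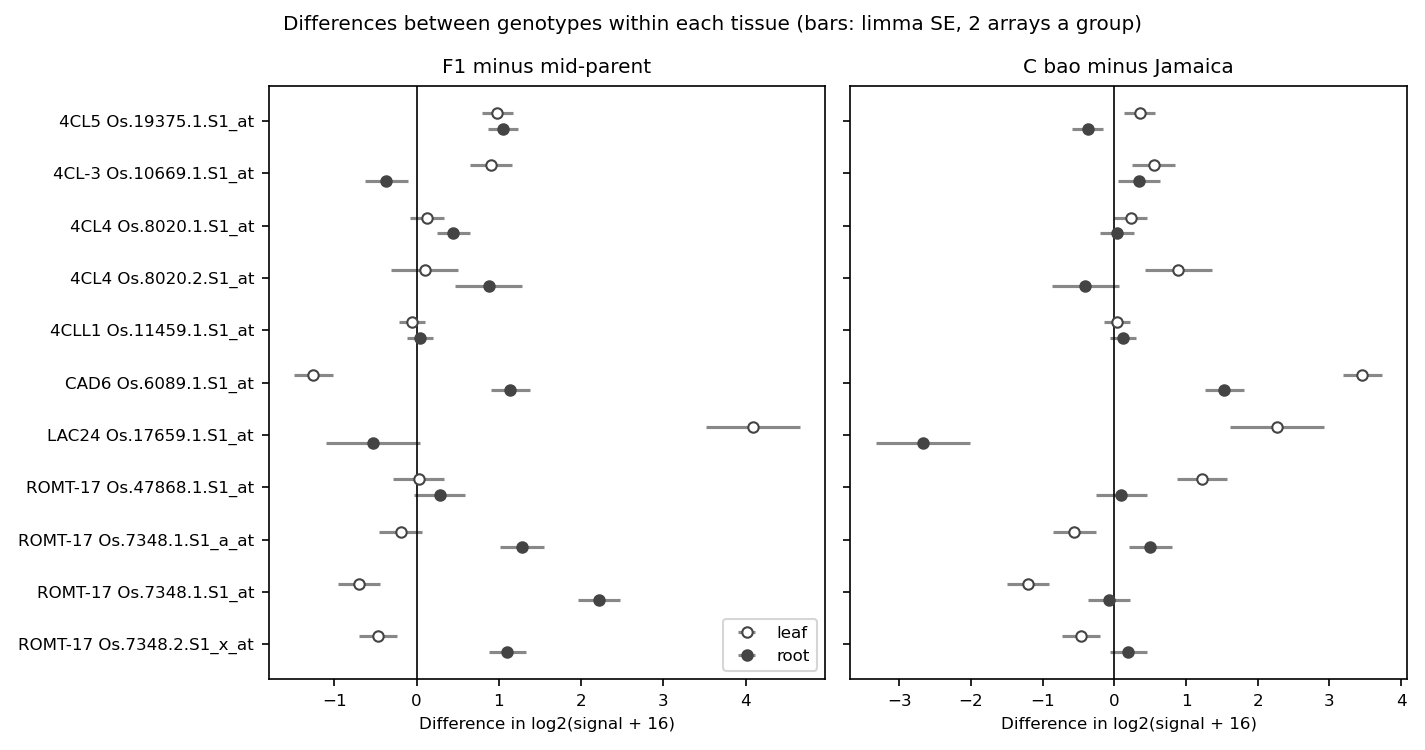
Differences in log2(signal + 16) for each of the 11 probe sets, F1 minus mid-parent on the left and C bao minus Jamaica on the right, in leaves (open circles) and roots (filled circles), with limma standard errors as bars. LAC24 at 4.09 in leaves and the plain ROMT-17 probe set at 2.22 in roots lie farthest from 0 among the F1 differences, and CAD6 lies on opposite sides of 0 in leaves (-1.25) and roots (1.14).

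Counted over arrays, 3 of the 11 probe sets (4CL5, 4CL-3 and LAC24) were higher on both F1 leaf arrays than on all 4 parental leaf arrays and 1 (ROMT-17, _x_at) was lower, where 6.15% and 7.13% of all 42974 probe sets tested (13.3% either way) were so placed. In roots 7 of the 11 were higher on both F1 arrays than on all 4 parental arrays and 0 were lower, against 18.9% and 11.1% of all probe sets (30% either way). These 7 belong to 4 genes: 4CL5, 4CL4 with both probe sets, CAD6 and ROMT-17 with 3. The genes were chosen with such differences known, and nothing is read from these counts. The median of all probe sets was itself 0.12 above the mid-parent in F1 roots with the deposited scaling and -0.13 with median centring. The 7 probe sets were above the mid-parent under both and under quantile scaling.

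Marker genes moved with the hybrid as well. In F1 roots 5 of the 6 dehydration genes (Emp1, RAB16B, RAB16C, RAB16D and RAB21) passed the limma test as higher than the mid-parent, where 3.37% of all probe sets were called higher. Of the 5 root marker genes, the transporter genes NRT2.3, Lsi2 and PHT1-2 were lower in F1 roots (1.69% of all probe sets) and IRT1, for iron uptake, was higher. Of the 6 leaf marker genes, RCABP89 (-1.33), PETE (-1.09) and RCABP69 (-0.91) were also called lower in F1 roots than the mid-parent. Each of these was below C bao roots and overlapped Jamaica roots. PETE read 1293 and 2358 in F1 roots, against 6024.5 and 7590 in C bao roots and 2164 and 1938 in Jamaica roots. The 5 secondary wall genes, the cellulose synthases CESA4, CESA7 and CESA9 and 2 genes named BC1, gave 0 calls in F1 minus mid-parent in either tissue by limma, and 0 at an unadjusted p under 0.05. Their summed signal was 6716 and 5905 in F1 leaves, against 8259 and 5205 in C bao leaves and 598 and 3227.5 in Jamaica leaves. In roots it was 10092 and 10689 in the F1, against 8965 and 4935 in C bao roots and 7898 and 9447 in Jamaica roots. Each of the 5 secondary wall genes was above the mid-parent in F1 leaves, by 0.73 to 1.10 log2 units (limma SE 0.34 to 0.58). LAC24 was high in F1 leaves, and the summed secondary wall genes there were within the range of C bao leaves and above Jamaica leaves. The part of dehydration, tissue make-up or the split between the F1 leaf arrays in the members' levels was not tested.

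**Figure D3:**
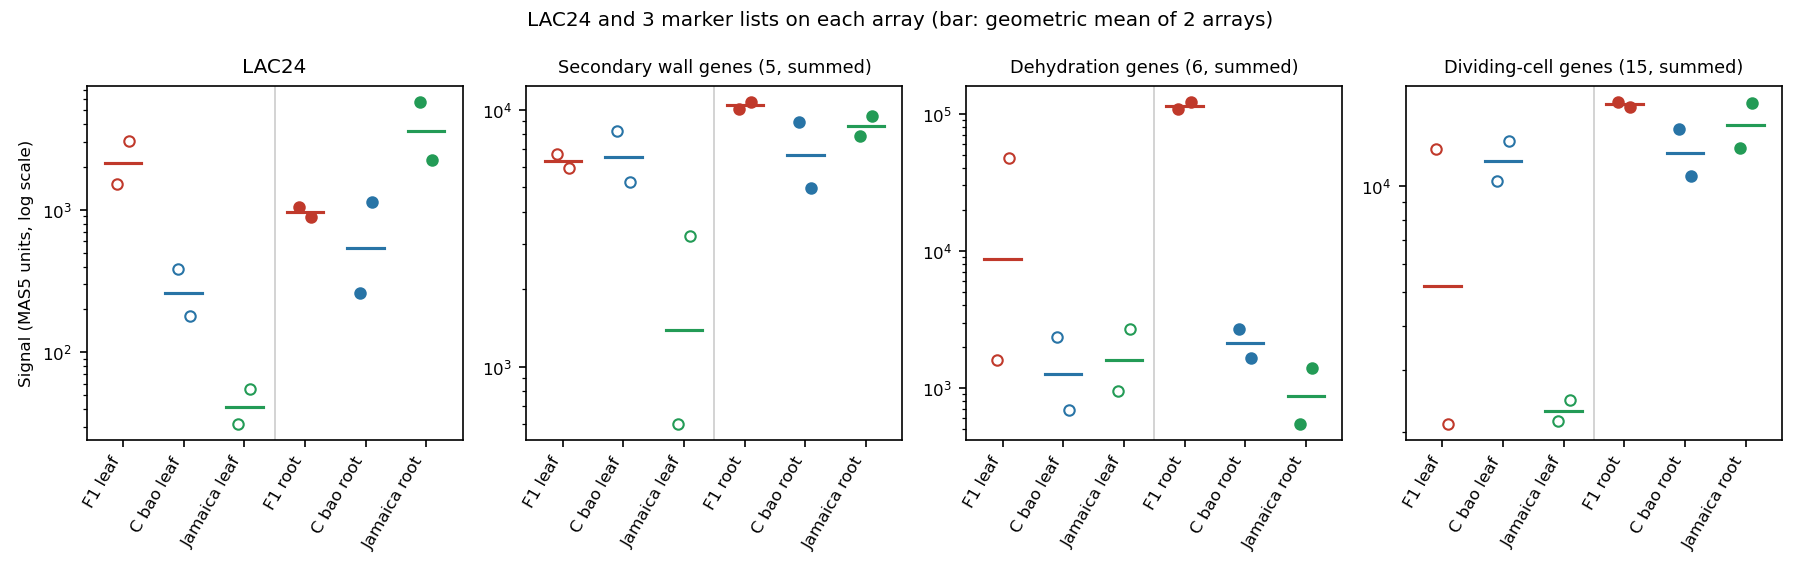
Signal of LAC24 and summed signal of the secondary wall, dehydration and dividing-cell genes on each of the 12 arrays, on log axes in MAS5 units, with F1 groups left of C bao and Jamaica in each tissue. Circles are arrays and bars are geometric means of 2 arrays. The F1 leaf arrays lie together for the secondary wall genes (6716 and 5905) and far apart for the dehydration genes (1611 and 47340) and the dividing-cell genes (12759 and 2113).

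Among the 7 genes the parents differed most in CAD6 and LAC24. CAD6 was 3.46 ± 0.27 higher in C bao leaves than in Jamaica leaves and 1.53 ± 0.27 higher in C bao roots than in Jamaica roots. LAC24 changed sides, at 2.27 ± 0.66 in leaves and -2.67 ± 0.66 in roots, and leaving out C bao root array 1 or 2 gave -1.64 or -3.70 in roots. The other genes differed less: 4CL5 by 0.36 ± 0.22 in leaves and -0.37 ± 0.22 in roots, and 4CLL1 by 0.04 ± 0.18 in leaves and 0.13 ± 0.18 in roots, where the leaf value was -0.01 with median centring. For 4CL-3 the difference was 0.55 ± 0.30 in leaves and 0.34 ± 0.30 in roots. The bright 4CL4 probe set gave 0.23 ± 0.23 in leaves and 0.04 ± 0.23 in roots, and the dim one 0.89 ± 0.47 and -0.40 ± 0.47. ROMT-17 ran from -1.21 ± 0.29 (plain probe set) to 1.22 ± 0.35 (the fourth) in leaves, so that its probe sets gave opposite parental differences. In leaves 6 of the 11 probe sets were higher on both C bao arrays than on both Jamaica arrays and 1 was lower, where 28.1% of all probe sets were higher and 28.1% lower (56.2% either way). In roots 4 were higher and 3 lower, where 24% and 27.5% of all probe sets were (51.4% either way).

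Across tissues, 4CL5, 4CL-3, 4CLL1 and the fourth ROMT-17 probe set were lower on all 4 parental leaf arrays than on all 4 parental root arrays, and the other 3 ROMT-17 probe sets were higher, where 17% of all probe sets lay each way (34.1% in all). The parental leaf minus root difference was -1.69 ± 0.15 for 4CL5, -2.25 ± 0.21 for 4CL-3 and -0.59 ± 0.13 for 4CLL1. In the F1, 7 of the 11 were lower on both leaf arrays than on both root arrays and 3 were higher, where 37% and 27.1% of all probe sets were (64.1% either way). The 3 were LAC24 and ROMT-17 by its _a_at and _x_at probe sets. The F1 difference was -1.76 ± 0.22 for 4CL5 and -0.98 ± 0.30 for 4CL-3.

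The other genes of the pathway were taken from the annotation by enzyme name: 25 genes with a probe set besides the 7, each judged on its brightest probe set, and all 25 passed the filter. In F1 leaves, 0 of the 25 passed the test against the mid-parent in either direction (limma, Benjamini-Hochberg adjusted p under 0.05 over all probe sets), with 3 at an unadjusted p under 0.05, where 1.21% of all probe sets were called (0.982% higher and 0.233% lower). Their median difference was 0.07, against -0.02 over all probe sets. This count rested on which F1 leaf array was used. Without F1 leaf array 1 there were 4 calls, without array 2 there were 3, and without Jamaica leaf array 2 there were 3. CAD8A (1056 and 224 on F1 leaf arrays 1 and 2) was called at -1.10 without array 1 and at 1.06 without array 2, and LAC3, a laccase gene (536 and 75.1), at -1.16 and 1.44.

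In F1 roots 1 of the 25 was called lower and 0 higher, where 5.06% of all probe sets were called (3.37% higher and 1.69% lower). At an unadjusted p under 0.05 there were 5 lower and 2 higher. The call was the laccase gene LAC19 (log2 -2.97 ± 0.74, limma adjusted p = 0.0452). Its signal was 38.0 and 25.4 in F1 roots, against 40.2 and 102 in C bao roots and 1908 and 1463 in Jamaica roots, so that the hybrid lay at the low level of C bao. The call was absent in 13 of 19 alternatives (adjusted p 0.000422 to 0.29), among them the omission of any 1 of the 10 arrays other than the F1 leaf arrays. Without either F1 leaf array the count was 3. The list's median was -0.05 in F1 roots, against 0.12 over all probe sets. PAL, PAL06, CAD2 (mutated in gold hull and internode2 rice), CCR1 and ROMT-15 were among those that did not pass in F1 roots, with differences of -0.04, 0.67, -0.05, -0.51 and -0.08.

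The difference between the F1 effect in leaves and the F1 effect in roots gave 0 calls among the 25 genes by limma, with 4 higher and 1 lower at an unadjusted p under 0.05, where 1.11% of all probe sets were called (0.43% higher and 0.679% lower). Their median was 0.50, against -0.13 over all probe sets. For the 7 genes the same difference was 1.27 ± 0.37 for 4CL-3, -2.39 ± 0.34 for CAD6, 4.62 ± 0.80 for LAC24 and -2.92 ± 0.36 for ROMT-17 (plain probe set). It was -0.07 ± 0.27 for 4CL5, a sign that turned with median centring (0.22). Without Jamaica leaf array 2 the count over the 25 genes was 1, and without either F1 leaf array it was 2.

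Between the parents' leaves 6 of the 25 genes passed, where 11.9% of all probe sets did (7.46% higher and 4.39% lower). Higher in C bao leaves than in Jamaica leaves were the laccase genes LAC4 (3.67 ± 0.73, limma adjusted p = 0.00991) and LAC10 (1.92, 0.0249), CAD8A (2.38, 0.0136) and 4CL1 (1.42, 0.0127). Lower in C bao leaves were HCT3 (-1.62, 0.00862) and CAD8C (-1.39, 0.0029). LAC4 read 1020.4 and 304 in C bao leaves, against 4.80 and 82.6 in Jamaica leaves. The count was 3 without C bao leaf array 1, 2 without C bao leaf array 2 and 1 without Jamaica leaf array 1, and the call that held in all 19 alternatives was CAD8C. In the same leaves 4 of the 5 secondary wall genes and 4 of the 14 dividing-cell genes that passed the filter were higher in C bao. The part of either list in these differences was not tested.

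Between the parents' roots 3 of the 25 passed, where 4.7% of all probe sets did (2.39% higher and 2.31% lower). 4CL1 was higher in C bao roots (1.72 ± 0.30, limma adjusted p = 0.00617), and CAD8C (-1.67 ± 0.22, 0.00111) and LAC19 (-4.37 ± 0.85, 0.0132) were lower. 4CL1 read 2160.3 and 2307 in C bao roots, against 546 and 814 in Jamaica roots, and CAD8C read 149 and 107 in C bao roots, against 406 and 472 in Jamaica roots. Both genes had the same direction in leaves. The count was 1 without C bao root array 1 or Jamaica root array 1. The root signal of CAD7, mutated in the flexible culm1 rice plants, was 4.20 and 29.1 in C bao, against 2116 and 44.9 in Jamaica, where 1 array alone was high, and it did not pass.

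The pathway list parted most between tissues. In parental leaves 16 of the 25 genes were lower and 6 higher than in parental roots, where 21% and 20.9% of all probe sets were (41.9% either way), and the median was -1.36, against 0.03 over all probe sets. The widest falls were in CAD8A (-4.54 ± 0.36, limma adjusted p = 1.87e-06), PAL06 (-3.85 ± 0.43, 3.26e-05), LAC19 (-3.57), LAC3 (-3.27), 4CL1 (-3.03) and LAC10 (-2.64). The fall of LAC19 lay mainly in Jamaica, with 1908 and 1463 in roots and both leaf arrays below the filter at a signal of 32.2. In C bao LAC19 read 28.2 and 37.1 in leaves and 40.2 and 102 in roots, mostly close to that filter. Both PAL genes, HCT1 and HCT2, ROMT-15, CCR1 and CAD2 were also lower in leaves. Higher in leaves were CAD8C (4.95 ± 0.16, 3.45e-09), CAD3 (4.76), 4CL2 (3.42), LAC20 (2.31), LAC7 (1.73) and HCT3 (1.62). The calls of LAC20 and LAC15 held in 6 and 11 of 18 alternatives (adjusted p 0.00727 to 0.169 and 0.00276 to 0.102), and the others among the 22 held in all 18. By their means 4CL5, 4CL-3, 4CLL1, CAD6 and LAC24 lay on the side of the larger number of pathway genes. Pooled over both parents, the leaf and root arrays of CAD6, LAC24 and 4CL4 overlapped. Within each parent, CAD6 and the bright 4CL4 probe set were lower on both leaf arrays than on both root arrays. LAC24 was so in Jamaica only. ROMT-17 lay on the other side by 3 of its 4 probe sets. Of the flavonoid branch, the chalcone synthase gene CHS1 was higher in parental leaves (3.30 ± 0.57, limma adjusted p = 0.000719) and the chalcone isomerase gene CHI did not pass.

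**Figure D4:**
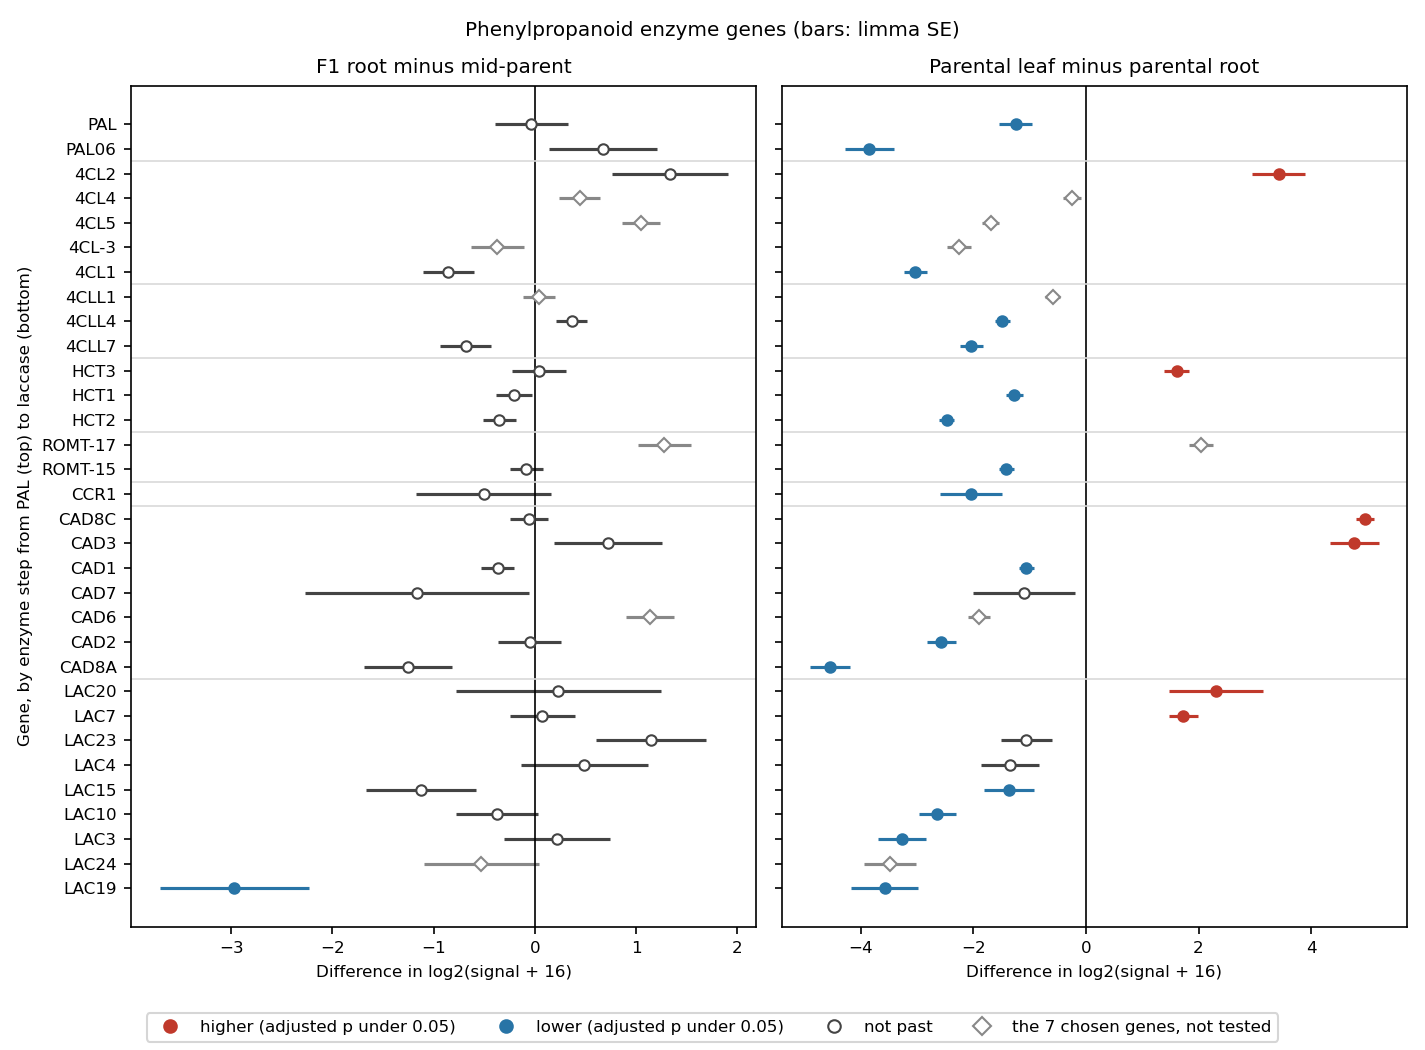
Differences in log2(signal + 16) for 32 phenylpropanoid genes in order of enzyme step, F1 root minus mid-parent on the left and parental leaf minus parental root on the right, with limma standard errors as bars. Red and blue circles passed the test as higher and lower, open circles did not pass, and grey diamonds are the 7 chosen genes, which were not tested. LAC19 (-2.97) is the 1 call in F1 roots, while 22 of 25 genes passed between tissues.

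The patterns most like each gene's were sought among 3056 probe sets of genes with an informative name, by Pearson's r of the 12 log2 values. The 12 arrays share the split into leaf and root, which raises r for pairs of genes that differ between tissues in the same direction. The values are a description. For 4CL5 the nearest were DOF1 (r = 0.977), HAK23 (0.967) and CML14 (0.956). 4CL-3 was nearest to GT4 (0.977), bHLH (0.972) and rgp2 (0.970), and 4CLL1 to TGAL4 (0.968), NRT2.2 (0.962) and EXP8 (0.961). For 4CL4 the nearest genes were HSP18.6 (0.910), OsPP2C78 (0.887) and LEA19 (0.884). The probe set of LEA19 is the one counted among the dehydration genes above, under its other name LEA3. ROMT-17, by its _a_at probe set, was nearest to BGLU27 (0.955), ARF15 (0.952) and RDR2 (0.947). CAD6 had VIT1.2 (0.941), RA5 (0.931) and MAPKK1 (0.900), and LAC24 had PUB24 (0.881), IRX14 (0.877) and NAC067 (0.858), the lowest of the 7 sets of values.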

How the data were processed

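Total RNA of 12 leaf and root samples was hybridised to Affymetrix rice arrays, 2 per group. The deposited values are MAS5 signal intensities on a linear scale, per the submitters' processing notes; the MAS5 version is not given in the sources used here. All arrays had a 2% trimmed mean near 500 (500.06 to 500.08), and were rescaled to exactly 500. Of 57381 probe sets, 123 controls were left out; 22436 of the 57258 rice probe sets have 1 gene in the platform annotation, 95 have several and 34727 none. Symbols were updated through RefSeq gene IDs. Probe sets were kept where a group's mean log2(signal + 16) exceeded the mean of the arrays' 40th percentiles (42974 kept). limma 3.58.1 in R 4.3.3 was fitted to all 6 groups (trended prior, 6 residual degrees of freedom), with Benjamini-Hochberg adjustment over all probe sets kept at 0.05, and was tested on simulated data. With 2 arrays a group, the number of arrays limits the precision.

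The members, lists and comparisons were chosen with earlier results of these arrays known. Each list gene was represented by its brightest probe set (mean of 12 arrays), and the up to 6 called genes of widest difference in each direction were named; others are named as not passing or as examples chosen after their values were seen. Cinnamate 4-hydroxylase, coumarate 3-hydroxylase, caffeoyl shikimate esterase and ferulate 5-hydroxylase genes were not found by name, and no sequence was used here. Same-numbered arrays did not deviate together (r of -0.17 to 0.08 over 15 pairs of groups). Alternatives were quantile scaling, median centring, pseudocounts of 1 and 64, no filter, a replicate block, each tissue alone and each array left out. The study's grouping came from the labels.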

Additional observations from a re-analysis of the deposited data

Results flagged for a closer look

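For 5 probe sets of 4 genes both F1 arrays lay on 1 side of the mid-parent in leaves and on the opposite side in roots. The difference between the F1 effect in leaf and that in root was 1.27 for 4CL-3, -2.39 for CAD6 and 4.62 for LAC24 on the log2 scale. It was -2.92 for ROMT-17 on its plain probe set and -1.57 on its _x_at probe set. These differences were not tested, because the genes were chosen with results of these arrays known.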

How the results depend on the processing

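Each of the 66 differences of the 11 member probe sets kept within 1 replicate SD of its value without a filter, with the replicate block and, for the 44 that can be had, within each tissue alone. Median centring moved 8 of the 66 beyond it, pseudocounts of 64 and 1 moved 2 and 1, quantile scaling moved 1, and single omitted arrays moved 38 of 792. Of the counts over the 25 other pathway genes, the 1 call in F1 root minus mid-parent became 3 with median centring, 2 with a pseudocount of 64, 6 (2 higher, 4 lower) with roots fitted alone, and 0 with a pseudocount of 1, with no filter or with the replicate block. The 6 calls in C bao leaf minus Jamaica leaf became 1 with leaves fitted alone, and the 0 in the difference of F1 effects became 1 with a pseudocount of 64. The replicate block changed no other count by over 1.5 times (7 in C bao leaf minus Jamaica leaf and 21 in parental leaf minus parental root, against 6 and 22). With 1 array left out the counts ranged from 0 to 3 in F1 roots, 0 to 4 in F1 leaves, 1 to 4 in C bao root minus Jamaica root, 1 to 7 in C bao leaf minus Jamaica leaf, 20 to 23 between parental tissues and 0 to 2 in the difference of F1 effects. A lone remaining array was taken to vary like the other groups. The cause of these shifts was not tested. With 2 arrays a group, signals near 32.2 have no reliable order.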
